A study of Drosophila melanogaster with 10 samples.

Results

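Mock RNAi libraries were compared with untreated wild-type (WT) libraries of Drosophila S2 cells, a cell line derived from embryos. The aim was to describe how the measured contacts of the pericentromeric heterochromatin (PCH) differed between the groups. The members were chosen by their labels: 2 mock RNAi and 3 WT libraries, 5 of the 9 libraries with scores and of the 10 samples in the series. WT cells were not transfected. Mock RNAi cells carried the same genome and received dsRNA against EGFP, a sequence with no target gene in these cells, with 1 µg of dsRNA per well and 3 days of incubation as in the other RNAi groups. Both groups are populations of 1 cell line grown in the same medium, and the study's methods call the 3 WT libraries biological replicates. The mock RNAi libraries are described there as duplicates, with no statement on separate cultures, so their spread may be technical. Transfection and the presence of dsRNA cannot be told apart in this design. The study's methods do not say whether both groups were prepared together, so preparation cannot be told apart from treatment either.

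PCH is the chromatin next to the centromeres. It is rich in repeats and carries methylation of histone H3 at lysine 9, to which HP1a binds, and genes lie in it that are expressed in spite of this setting. Cells treated with dsRNA against a gene they do not have are the usual reference for RNAi of chromatin proteins, because they go through the same handling without losing a protein. In 5C, primers are ligated where restriction fragments had been joined in the nucleus, so that each sequenced product reports a contact between a pair of fragments.

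The deposited values are interaction scores, the log2 of observed over expected contacts of 2 bins of 1 arm, computed against a control that was not crosslinked. Contacts more frequent than expected have scores above 0. In dm3 coordinates, the bins were 5 kb long on chrX and 10 kb elsewhere. They ran from 21906057 to 22967798 on chr2L (107 bins), from 19746 to 1385689 on chr2R (137 bins), from 22866370 to 24543557 on chr3L (168 bins), from 6153 to 428656 on chr3R (43 bins) and from 21659812 to 22397716 on chrX (148 bins). Each library had 40796 pairs of different bins over 603 bins. Scores of exactly 0 were treated as missing, which left 35725, 35542 and 35838 pairs in WT replicates 1, 2 and 3 and 35955 and 35908 pairs in mock RNAi replicates 1 and 2, and 35415 pairs had a value in all 5. The scores are not counts, so the depth behind a score is unknown from these values and no counting interval can be given. Because the authors binned and smoothed the contacts by their median, neighbouring bins share fragments, and bins and bin pairs are not independent measurements.

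WT replicate 3 stood apart from the other WT libraries and on average lay nearer to the mock RNAi libraries. Over the 35415 shared bin pairs, Pearson's r was 0.662 between WT replicates 1 and 2 and 0.719 between the mock RNAi replicates. WT replicate 3 correlated with WT replicates 1 and 2 at 0.496 and 0.590, and with mock RNAi replicates 1 and 2 at 0.595 and 0.724. WT replicates 1 and 2 correlated with the mock RNAi libraries at 0.443 to 0.638. The highest of these was WT replicate 1 with mock RNAi replicate 1, above the 0.595 of WT replicate 3 with that library. With the mean of each distance removed, the mean r kept this order, with 0.504 for WT replicate 3 against the other WT libraries and 0.651 for WT replicate 3 against mock RNAi. By arm, r was computed on the deposited scores only. The split was widest on chrX, where the mean r of WT replicate 3 was 0.439 with the other WT libraries and 0.724 with mock RNAi. It was narrowest on chr3L, where these means were 0.619 and 0.652. On chr3L, WT replicate 3 correlated at 0.688 with WT replicate 2 and at 0.606 with mock RNAi replicate 1. These correlations run over bin pairs that share bins and smoothing windows and are given as a description. Several differences below, among them those of the all-pair, arm and distance class medians as deposited, are therefore given also without WT replicate 3. The differences of genes, called bins, centred distance classes and most relative arm medians are given with all 5 libraries only. What set this library apart was not tested.

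**Figure D1:**
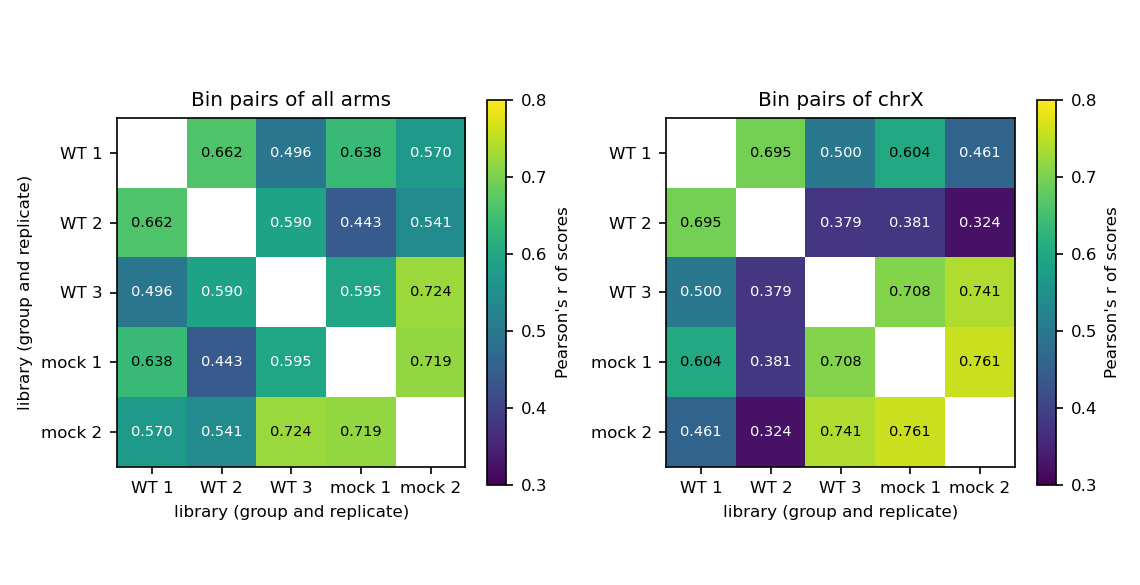
Pearson's r of the deposited interaction scores between each pair of libraries, over the 35415 bin pairs shared by the 5 libraries, for all arms on the left and chrX on the right. Colour and number give r. WT replicate 3 was nearer to the mock RNAi libraries (0.708 and 0.741 on chrX) than to WT replicates 1 and 2 (0.50 and 0.379 on chrX).

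The median score of the captured PCH was lower in both mock RNAi libraries than in any WT library. The median score of all bin pairs was −0.49, −0.38 and −0.72 in WT replicates 1, 2 and 3 and −0.84 and −0.80 in mock RNAi replicates 1 and 2. WT replicate 3 was the WT library nearest to mock RNAi. The group means were −0.53 ± 0.18 (SD, n = 3) and −0.82 ± 0.030 (SD, n = 2), a difference of −0.29 on the log2 scale (two-sided exact permutation test, p = 0.2, the smallest p that 2 against 3 libraries allow). The difference was −0.39 against WT replicates 1 and 2 and −0.10 against WT replicate 3.

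Positive scores, which the study's methods count as valid interactions, were also fewer in mock RNAi over all arms together. A share above a fixed level moves with the median, so this restates the difference in level and is no further result. They made up 7.95%, 16.1% and 5.55% of the pairs with a value in WT replicates 1, 2 and 3 and 2.88% and 3.62% in mock RNAi replicates 1 and 2. The mock RNAi shares were below all 3 WT shares, and the WT shares themselves differed by more than the distance from WT replicate 3 to mock RNAi. The mean difference was −6.62 percentage points (exact permutation test, p = 0.2), −8.79 without WT replicate 3 and −3.50 without WT replicate 2. By arm, the mock RNAi shares were below all WT shares on chr2R (0.571% and 1.54% against 3.66%, 12.3% and 3.63%) and chr3L (1.45% and 1.79% against 5.91%, 7.15% and 2.76%). They overlapped on chr2L, chrX and chr3R, and on chr3R they were 1.44%, 6.59% and 6.28% in WT and 2.60% and 6.97% in mock RNAi.

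Of the pairs with a value in all 5 libraries, 876 were positive in all 3 WT libraries and 564 in both mock RNAi libraries, and 360 were positive in all 5. The sets are not alike in make-up, since the WT set asks for 3 libraries and the mock RNAi set for 2. These 360 were 41.1% of the WT set and 63.8% of the mock RNAi set. Of all 35415 pairs, 15 were positive in both mock RNAi libraries and in no WT library, while 177 were positive in all WT libraries and in neither mock RNAi library. Of the 15 pairs, 13 were on chrX, which held 7895 of the 35415 pairs. Like the share of positive scores, these counts move with the median and are no further result. The shared positive pairs were mostly close ones, with 280 of the 360 under 100 kb. On chr2L, 115 of the 119 pairs positive in both mock RNAi libraries were also positive in all WT libraries, which is 96.6% of the mock RNAi set and 36.4% of the 316 pairs of the WT set. On chrX the sets were of like size, with 260 in WT and 278 in mock RNAi, and 155 pairs were in both. On chr3R the mock RNAi set was the larger, with 20 pairs against 3 in WT.

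By arm, the mock RNAi medians lay below all WT medians on chr2L, chr2R, chr3L and chr3R and among them on chrX. On chr2L the median was −0.50, −0.07 and −0.37 in WT replicates 1, 2 and 3 and −0.90 and −0.60 in mock RNAi replicates 1 and 2. On chr2R it was −0.62, −0.40 and −0.77 in WT and −0.99 and −0.89 in mock RNAi. The mock RNAi replicates lay farther apart on chr2L than on any other arm. The differences were −0.44 on chr2L and −0.34 on chr2R (exact permutation test, p = 0.2 each, adjusted p = 0.25 over 5 arms), and −0.47 and −0.43 against WT replicates 1 and 2 alone. On chr2L the difference was −0.28 without mock RNAi replicate 1 and −0.59 without mock RNAi replicate 2.

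On chr3L the median was −0.49, −0.46 and −0.76 in WT replicates 1, 2 and 3 and −0.79 and −0.81 in mock RNAi. On chr3R it was −0.47, −0.41 and −0.61 in WT and −0.65 and −0.65 in mock RNAi. On both arms WT replicate 3 was within 0.06 of the mock RNAi libraries. The differences were −0.23 on chr3L and −0.16 on chr3R (exact permutation test, p = 0.2 each, adjusted p = 0.25), −0.32 and −0.21 against WT replicates 1 and 2, and −0.04 and −0.05 against WT replicate 3. On chrX the median was −0.37 and −0.37 in WT replicates 1 and 2, −0.81 in WT replicate 3, and −0.75 and −0.84 in mock RNAi. WT replicate 3 was lower than mock RNAi replicate 1 there, so the groups overlapped. The chrX difference was −0.28 (exact permutation test, p = 0.4, adjusted p = 0.40), −0.43 against WT replicates 1 and 2 and +0.02 against WT replicate 3.

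**Figure D2:**
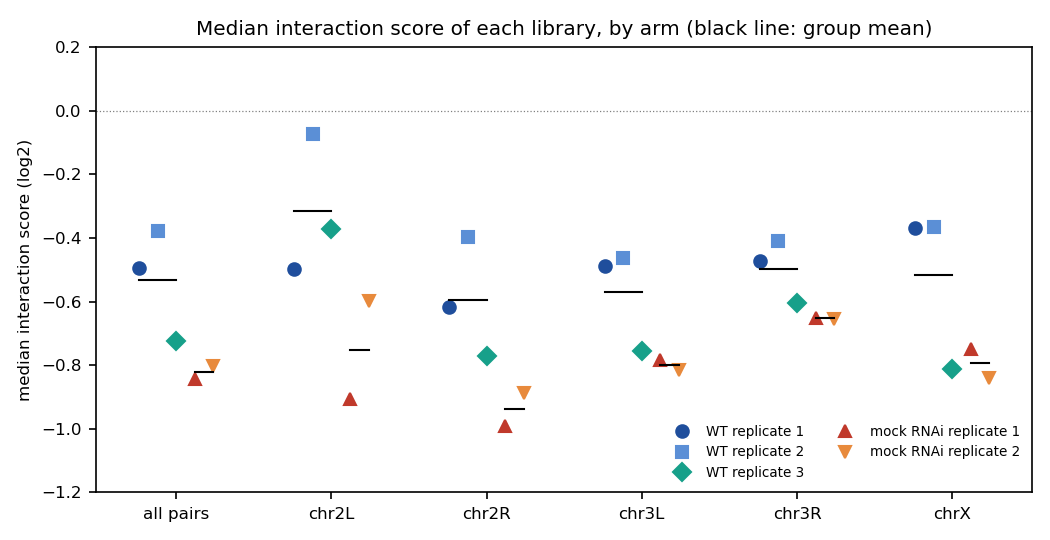
Median interaction score (log2) of each library over all pairs and by arm; points are libraries, with colour and shape for group and replicate, and black lines are group means. Both mock RNAi libraries lie below all WT libraries except on chrX, where WT replicate 3 (−0.81) lies between mock RNAi replicates 1 and 2 (−0.75 and −0.84).

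Each arm was also set against the other 4 arms of the same library, which takes out a shift common to the library. The chr3R median minus the mean of the other arms was 0.02, −0.09 and 0.07 in WT and 0.21 and 0.13 in mock RNAi, above all WT libraries, a difference of 0.17. The chr2R value was −0.1599, −0.0699 and −0.136 in WT and −0.218 and −0.1608 in mock RNAi, below all WT libraries by a narrow margin, a difference of −0.07. These were the 2 arms whose groups did not overlap. On chr2L, chr3L and chrX the differences were −0.19, 0.07 and 0.01 with overlapping groups. No arm passed an exact permutation test (p = 0.2 to 1, adjusted p = 0.5 to 1 over 5 arms), and the chrX value turned to −0.07 without WT replicate 3.

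Over all arms together, the lower median of mock RNAi was found in each class of distance. Pairs under 50 kb had medians of −0.18, −0.07 and −0.36 in WT replicates 1, 2 and 3 and −0.47 and −0.39 in mock RNAi. Pairs at 400 kb and over had medians of −0.58, −0.47 and −0.81 in WT and −0.93 and −0.89 in mock RNAi. Over all arms together, both mock RNAi libraries were below all WT libraries in each of the 5 distance classes. In the first 20 kb, however, mock RNAi replicate 2 (−0.249) lay above WT replicate 3 (−0.263). By arm, the medians under 50 kb were below all WT medians on chr2R and chr3L and overlapped them on chr2L, chr3R and chrX. The differences were −0.23 under 50 kb, −0.25 from 50 to under 100 kb, −0.26 from 100 to under 200 kb, −0.32 from 200 to under 400 kb and −0.29 at 400 kb and over (exact permutation test, p = 0.2 in each class, adjusted p = 0.2 over 5 classes). Against WT replicates 1 and 2 they were −0.31, −0.33, −0.36, −0.41 and −0.38, and against WT replicate 3 they were −0.07, −0.08, −0.06, −0.13 and −0.10.

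Subtracting each library's median of each arm removes the difference in level by construction. The centred differences by distance ran from −0.013 to 0.07. The centred median under 50 kb differed by 0.07 and overlapped between the groups (exact permutation test, p = 0.4, adjusted p = 0.5). It differed by 0.079 over pairs with a value in all 5 libraries, 0.072 over pairs at least 30 kb apart and 0.143 with zeros kept (exact permutation test, p = 0.2 each). With means in place of medians it differed by 0.054 (exact permutation test, p = 0.4). From 100 to under 200 kb mock RNAi was above all WT libraries by 0.03, and from 200 to under 400 kb it was below all of them by 0.013 (exact permutation test, p = 0.2 each, adjusted p = 0.5). At 400 kb and over the difference was −0.006 (exact permutation test, p = 0.8). The fall of the score with distance was measured as the median of pairs under 100 kb minus that of pairs at 200 kb and over, averaged over the arms. It was 0.25, 0.27 and 0.34 in WT replicates 1, 2 and 3 and 0.31 and 0.38 in mock RNAi, a difference of 0.06 with overlapping groups (exact permutation test, p = 0.4), which was 0.09 without WT replicate 3 and 0.005 against WT replicate 3 alone.

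**Figure D3:**
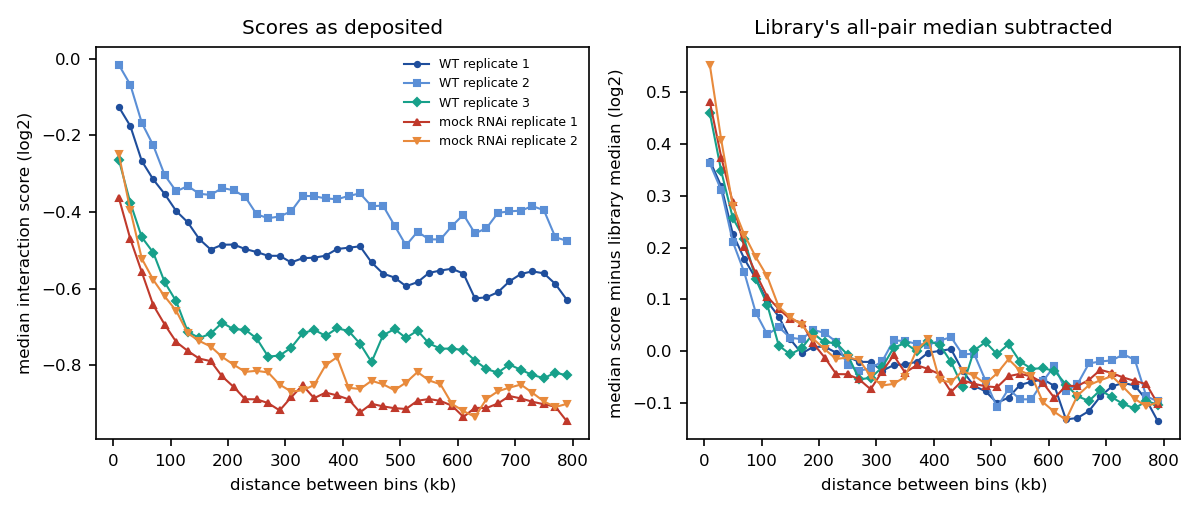
Median interaction score (log2) of pairs in 20 kb steps of the distance between bins, as deposited on the left and after subtracting each library's all-pair median on the right; lines are libraries. The 5 curves fall with distance and are offset from one another on the left (in the first step −0.13, −0.02 and −0.26 in WT and −0.36 and −0.25 in mock RNAi). They lie closer together on the right, least so in the first step, and under 60 kb both mock RNAi libraries lie above all WT libraries there.

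Positive scores were most frequent among close pairs in all 5 libraries, and fewer of these pairs were positive in mock RNAi. Under 50 kb, 32.0%, 43.1% and 26.8% of pairs were positive in WT replicates 1, 2 and 3 and 16.0% and 22.0% in mock RNAi. On chr2L, 39.2%, 78.4% and 55.1% were positive in WT and 22.9% and 45.4% in mock RNAi, so that mock RNAi replicate 2 lay among the WT values. On chr2R, 20.8%, 47.4% and 20.2% were positive in WT and 2.38% and 8.55% in mock RNAi, below all WT values. On chr3R the mock RNAi values were 14.1% and 36.0% and overlapped those of WT, 7.80%, 35.7% and 33.6%. On chrX at 400 kb and over, 25.8%, 19.6% and 8.48% of pairs were positive in WT and 12.4% and 4.17% in mock RNAi, a higher share in every library than on chr3L (3.57%, 3.56% and 0.431% in WT and 0.470% and 0.143% in mock RNAi). This class is not alike on these arms, since it reached 735 kb on chrX and 1670 kb on chr3L, and the bin sizes also differed.

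The spread of the scores within an arm was no narrower in mock RNAi. The interquartile range averaged over the arms was 0.41, 0.45 and 0.51 in WT replicates 1, 2 and 3 and 0.47 and 0.50 in mock RNAi. Both mock RNAi values lay among the WT values, and WT replicate 3 had the widest range. The difference was 0.03 (exact permutation test, p = 0.6), 0.06 without WT replicate 3 and 0.003 without WT replicate 1.

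The strongest contacts were shared between mock RNAi and WT libraries at 36.1% to 57.6%, and between WT libraries at 42.1% to 48.2%. In each library the 5% of pairs with the highest score relative to the arm median were taken, 1771 pairs. WT replicates 1 and 2 shared 48.2% of them, WT replicate 3 shared 42.1% and 43.2% with WT replicates 1 and 2, and the mock RNAi replicates shared 58.2% with each other. Mock RNAi replicates 1 and 2 shared 46.3% and 47.5% with WT replicate 1, 36.1% and 42.0% with WT replicate 2, and 49.5% and 57.6% with WT replicate 3. In all 5 libraries 348 pairs were among the highest, 81.3% of them under 100 kb apart against 16.3% of all pairs, with 133 on chrX, 115 on chr2L, 65 on chr3L, 33 on chr2R and 2 on chr3R.

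Single bin pairs were compared with limma, with Benjamini-Hochberg adjusted p below 0.05 as the threshold over all 35415 pairs. No pair was called lower (0%) or higher (0%) in mock RNAi on the deposited scores, where the unadjusted p was below 0.05 for 5183 lower and 44 higher pairs. In simulated data with 200 changed pairs, limma recovered 0% of log2 changes of 1 and 69.5% of changes of 2. The absence of calls therefore cannot speak against changes of 1 or less. The direction was shared widely all the same, with 88.9% of pairs lower in mock RNAi and a median difference of −0.27. Both mock RNAi libraries lay below all WT libraries for 36.9% of pairs and above all of them for 1.03%. By arm, the share of pairs below all WT libraries was 53.2% on chr2L, 47.1% on chr2R, 37.0% on chr3R, 32.0% on chr3L and 23.2% on chrX.

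After the arm medians were subtracted, 46.5% of pairs were lower in mock RNAi and the median difference was 0.02. Limma again called no pair lower (0%) or higher (0%), with an unadjusted p below 0.05 for 1409 lower and 1433 higher pairs and a lowest adjusted p of 0.46. In simulated centred scores it recovered 0% of log2 changes of 1 and 87.5% of changes of 2. The groups did not overlap with mock RNAi below for 11.1% of pairs and with mock RNAi above for 14.4%. Without WT replicate 3, limma called 790 pairs lower (2.23%) and none higher (0%) on the deposited scores, 531 of them on chrX, 164 on chr2R, 72 on chr3L, 23 on chr2L and 0 on chr3R. On the centred scores it then called 143 lower (0.404%) and 2 higher (0.00565%), of which 119 and 2 were on chrX. The calls thus depended on whether WT replicate 3 was in the WT group, and chrX held most of them.

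The 3 pairs with the smallest centred p in each direction, at most 1 per arm, all had adjusted p = 0.46 by limma. The pair of chr2R bins at 709746 to 719746 and 1139746 to 1149746, 430 kb apart, had deposited scores of −0.43, 0.21 and −0.91 in WT replicates 1, 2 and 3 and −2.28 and −2.42 in mock RNAi, a centred difference of −1.63 ± 0.23 (SE). The pair of chrX bins at 21679812 to 21684812 and 22109812 to 22114812, also 430 kb apart, was positive in all WT libraries (0.51, 0.32 and 0.44) and negative in both mock RNAi libraries (−1.16 and −1.38). Its centred difference was −1.41 ± 0.19 (SE), and here WT replicate 3 lay with the other WT libraries.

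On chr3L, the bin at 23076370 to 23086370 that reaches the start of RpL10, a protein of the large ribosomal subunit, had scores of −0.56, −0.61 and −0.83 in WT and −2.04 and −2.01 in mock RNAi with the bin at 24266370 to 24276370, 1190 kb away, a centred difference of −1.13 ± 0.13 (SE). In the other direction, the chrX bins at 21799812 to 21804812 and 22199812 to 22204812, 400 kb apart, had scores of −1.464, −1.102 and −1.455 in WT and −0.28 and −0.38 in mock RNAi, a centred difference of 1.29 ± 0.17 (SE). In all of these pairs the groups did not overlap, but the pairs were chosen by these same values, so this is no further result. The remaining pairs that were higher in mock RNAi joined chr2L bins 860 kb apart (centred difference 0.85) and chr3L bins 1180 kb apart (0.78). Without WT replicate 3, adjusted p by limma was 0.024 for the chr2R pair and 0.034 and 0.036 for the lower and higher chrX pairs. It was 0.041 for the RpL10 pair, and 0.088 and 0.095 for the other higher pairs. The pairs were chosen by their p, and the library left out is the WT library nearest to mock RNAi. These lower values are therefore no further result.

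Bins were then summarised as the mean score with all their partners on the arm, for 569 bins. On the deposited scores 563 of them (98.9%) were lower in mock RNAi, with a median difference of −0.28. Both mock RNAi libraries lay below all WT libraries in 55% of bins and above all of them in 0.351%. The share below was 88.1% on chr2R, 72.8% on chr2L, 53.7% on chr3R, 51.8% on chr3L and 10.2% on chrX. Limma called 21 bins lower (3.69%) and none higher (0%), with adjusted p from 0.011 to 0.047 and differences from −0.77 to −0.59. It called 0 bins when WT replicate 2, mock RNAi replicate 1 or mock RNAi replicate 2 was left out, 7 without WT replicate 1, and 0 in the fit on all 9 libraries or after quantile normalization. The 21 bins held 12 distinct sets of values, since neighbouring bins often carried the same score after binning, and 478 of the 569 sets were distinct.

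Of the called bins, 11 were on chrX, 6 on chr2L and 4 on chr2R, with 0 on chr3L and chr3R. The SE of the difference was 0.187 in every called bin, whatever the spread between its libraries. The SE and adjusted p of these bins are therefore not measures of each bin's own spread. On chr2R the bins from 739746 to 759746 had mean scores of −0.50, −0.16 and −0.76 in WT replicates 1, 2 and 3 and −1.16 and −1.34 in mock RNAi, a difference of −0.77 ± 0.19 (SE; limma adjusted p = 0.011). The bins from 159746 to 179746 had −0.86, −0.37 and −0.80 in WT and −1.33 and −1.38 in mock RNAi, a difference of −0.68. In both places every WT library was above both mock RNAi libraries. On chr2L the called bins from 22406057 to 22446057 covered RpL5, which encodes another protein of the large ribosomal subunit, and CG17490. A bin within CG17018, the gene of the RNA-binding protein Marf1, was also called.

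In 10 of the 11 called chrX bins the groups overlapped, because WT replicate 3 lay with mock RNAi. The bins from 22034812 to 22049812 had mean scores of −0.15 and 0.01 in WT replicates 1 and 2, −1.21 in WT replicate 3, and −1.04 and −1.18 in mock RNAi. The bins from 21689812 to 21704812 had −0.02 and 0.15 in WT replicates 1 and 2, −0.81 in WT replicate 3, and −0.69 and −0.97 in mock RNAi. The chrX bin whose groups did not overlap, at 21984812 to 21989812, had −0.16 and −0.05 in WT replicates 1 and 2, −1.05 in WT replicate 3 and −1.081 and −1.098 in mock RNAi. On all of these bins WT replicate 3 was far nearer to both mock RNAi libraries than to the other WT libraries.

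None of the 21 bins was called once the arm medians were subtracted (centred differences from −0.43 to −0.15, lowest adjusted p = 0.32). Limma then called 0% of bins lower and 0% higher, with an unadjusted p below 0.05 for 23 lower and 33 higher bins, and limma with trended and robust variances also called 0. Both mock RNAi libraries lay below all WT libraries in 12.3% of bins and above all of them in 18.5%. More bins were above than below on chrX (27 and 5 of 127), chr3L (40 and 16 of 164) and chr3R (8 and 7 of 41), and fewer on chr2L (9 and 18 of 103) and chr2R (21 and 24 of 134).

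Without WT replicate 3, limma called 362 bins lower (63.6%) and none higher (0%) on the deposited scores, 16 of the 21 bins among them. These were 141 of 164 bins on chr3L, 105 of 127 on chrX, 97 of 134 on chr2R, 15 of 41 on chr3R and 4 of 103 on chr2L, the arm on which WT replicates 1 and 2 and the mock RNAi replicates differed most among themselves. On the centred scores it called 56 bins lower (9.84%) and 60 higher (10.5%), with 22 of each on chrX. The library left out here is the WT library nearest to mock RNAi, and leaving out any other library gave 0 centred calls, so these counts compare mock RNAi with WT replicates 1 and 2 and not with the WT group. Between libraries, the centred bin means correlated at 0.875 for WT replicates 1 and 2, 0.891 for the mock RNAi replicates, 0.858 and 0.863 for WT replicate 3 with mock RNAi, 0.590 and 0.605 for WT replicate 3 with the other WT libraries, and 0.533 to 0.664 for WT replicates 1 and 2 with mock RNAi.

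**Figure D4:**
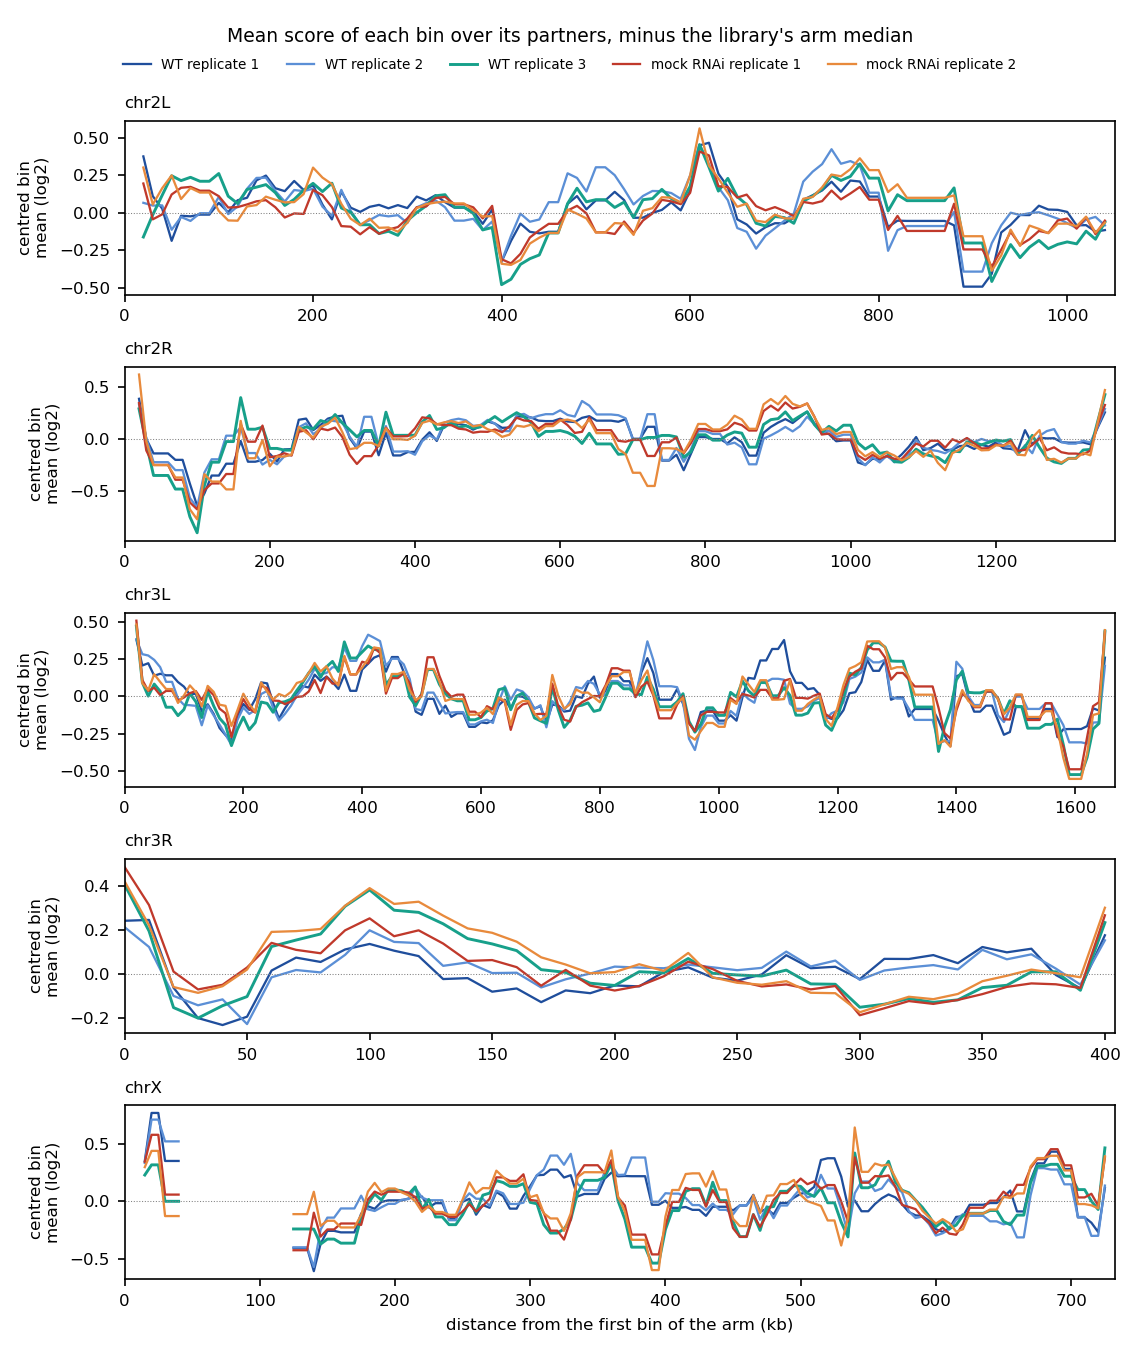
Mean interaction score of each bin with its partners on the arm after subtracting the library's arm median (log2), against the distance from the first bin of the arm in kb, for 5 arms; lines are libraries and gaps are bins without a value. On chrX and chr3R the line of WT replicate 3 runs with those of mock RNAi. At 375 kb on chrX, WT replicates 1 and 2 were at 0.22 and 0.38, WT replicate 3 at −0.40 and mock RNAi at −0.29 and −0.34.

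The centred profile differed most between the groups at a few places. The chrX bin at 21799812 to 21804812 had centred means of −0.61, −0.57 and −0.24 in WT replicates 1, 2 and 3 and −0.10 and 0.08 in mock RNAi, a difference of 0.46 ± 0.12 (SE; limma adjusted p = 0.32). It is an end of the higher chrX pair given above. The chr2R bins from 879746 to 899746 had −0.16, −0.25 and −0.08 in WT and 0.08 and 0.09 in mock RNAi, a difference of 0.25, and they lay within 19 neighbouring bins from 789746 to 979746 in which mock RNAi was above all WT libraries, on average by 0.15. This run of 190 kb was the longest in either direction on any arm. The chrX bin at 22319812 to 22324812 (0.28) and the chr3R bin at 56153 to 66153 (0.20), which holds part of Gel, were the others named as higher.

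Lower centred means were found in the chr2R bins from 739746 to 759746, with 0.11, 0.23 and 0.01 in WT replicates 1, 2 and 3 and −0.17 and −0.46 in mock RNAi, a difference of −0.43 ± 0.10 (SE; limma adjusted p = 0.32). These bins lay 30 kb before the run of higher bins on the same arm. The chr2L bins from 22406057 to 22426057 had 0.08, 0.30 and 0.09 in WT and −0.13 and −0.13 in mock RNAi, a difference of −0.29, inside a run of 8 lower bins from 22376057 to 22456057. The chrX bin at 21984812 to 21989812 had 0.21 and 0.32 in WT replicates 1 and 2, −0.24 in WT replicate 3 and −0.33 and −0.26 in mock RNAi, a difference of −0.39 (limma adjusted p = 0.45). Without WT replicate 3, the WT library nearest to mock RNAi, limma adjusted p for the bins named here was 0.0012 to 0.026. With all 5 libraries it was 0.32 to 0.45. The directions were the same, but the bins were chosen by these same differences, so neither directions nor p values are a further result.

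Genes that the study lists with positions inside these regions were followed through their bins. Of 32 genes, all of which matched a RefSeq locus tag (Release 6, used for names only), 30 had a value. On the deposited scores 29 of the 30 were lower in mock RNAi, 17 with both mock RNAi libraries below all WT libraries and 0 above, and their median difference was −0.31 against −0.28 over all bins. The gene bins were thus close to all bins, of which 55% lay below all WT libraries. After centring, 5 genes lay below all WT libraries and 2 above, against 12.3% and 18.5% of all bins, and the median difference was 0.001 against 0.006 over all bins. The lowest centred adjusted p of any of their bins was 0.32 by limma.

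RpL5 had the lowest mock RNAi value relative to WT on both scales. The mean score of its bins was −0.39, 0.20 and −0.31 in WT replicates 1, 2 and 3 and −1.04 and −0.70 in mock RNAi, a difference of −0.71 (limma adjusted p of its bins 0.015 and 0.024), and −0.27 after centring. Its neighbour CG17490 had −0.39, 0.13 and −0.32 in WT and −1.01 and −0.67 in mock RNAi, a difference of −0.65 (limma adjusted p of its bins 0.024 and 0.038). RpL5 and CG17490 share a called bin, so their values are not independent. In both genes WT replicate 3 lay with WT replicate 1 and not with mock RNAi.

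Other genes of chr2L were lower on the deposited scores without a shift of their own. For lt (light), which encodes a protein of vesicle transport, the mean score was −0.95, −0.37 and −0.70 in WT and −1.21 and −0.87 in mock RNAi, with overlapping groups, a difference of −0.36 that was 0.07 after centring. For cta (concertina), which encodes a G protein alpha subunit of gastrulation, the differences were −0.50 and −0.06. CG17018 differed by −0.48 and −0.04, and Clamp, which encodes a DNA-binding protein of the male X chromosome's dosage compensation, by −0.49 and −0.05. CycK, a cyclin that works with kinases of transcription, differed by −0.35 and 0.08, and Cht3, a chitinase, by −0.43 and 0.005.

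On chr2R the genes were lower by 0.25 to 0.40 as deposited. Gprk1, a kinase of G protein-coupled receptors that spans 15 bins, had −0.59, −0.40 and −0.71 in WT and −1.03 and −0.91 in mock RNAi, a difference of −0.40 that was −0.06 after centring with both mock RNAi libraries below all WT libraries. Nipped-B, the loader of cohesin, differed by −0.39 as deposited and −0.04 after centring. Nipped-A, a subunit of histone acetyltransferase complexes, differed by −0.34 and 0.002, and RpL38, of the large ribosomal subunit, by −0.25 and 0.09. None of these was called by limma (lowest adjusted p of their bins 0.054 as deposited).

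On chr3L and chr3R the gene bins differed by −0.25 to 0.006, and on chrX by −0.33 to −0.23. AGO3, an Argonaute protein of the piRNA pathway that spans 14 bins, had −0.52, −0.48 and −0.85 in WT and −0.84 and −0.84 in mock RNAi, so that WT replicate 3 was as low as mock RNAi. BoYb, also of the piRNA pathway, differed by −0.24, and RpL10 by −0.20. Gel, the actin-severing protein gelsolin, was the gene that was not lower, with −0.56, −0.53 and −0.59 in WT and −0.57 and −0.55 in mock RNAi, a difference of 0.006. After centring it was 0.16 higher, with both mock RNAi libraries above all WT libraries, and CG14642 beside it was 0.12 higher. On chrX, fog (folded gastrulation), a secreted signal of gastrulation, had −0.43 and −0.39 in WT replicates 1 and 2, −0.74 in WT replicate 3 and −0.77 and −0.77 in mock RNAi. CG31523 on chr3R and CG34334 on chrX were 0.08 and 0.05 lower after centring, with non-overlapping groups.

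**Figure D5:**
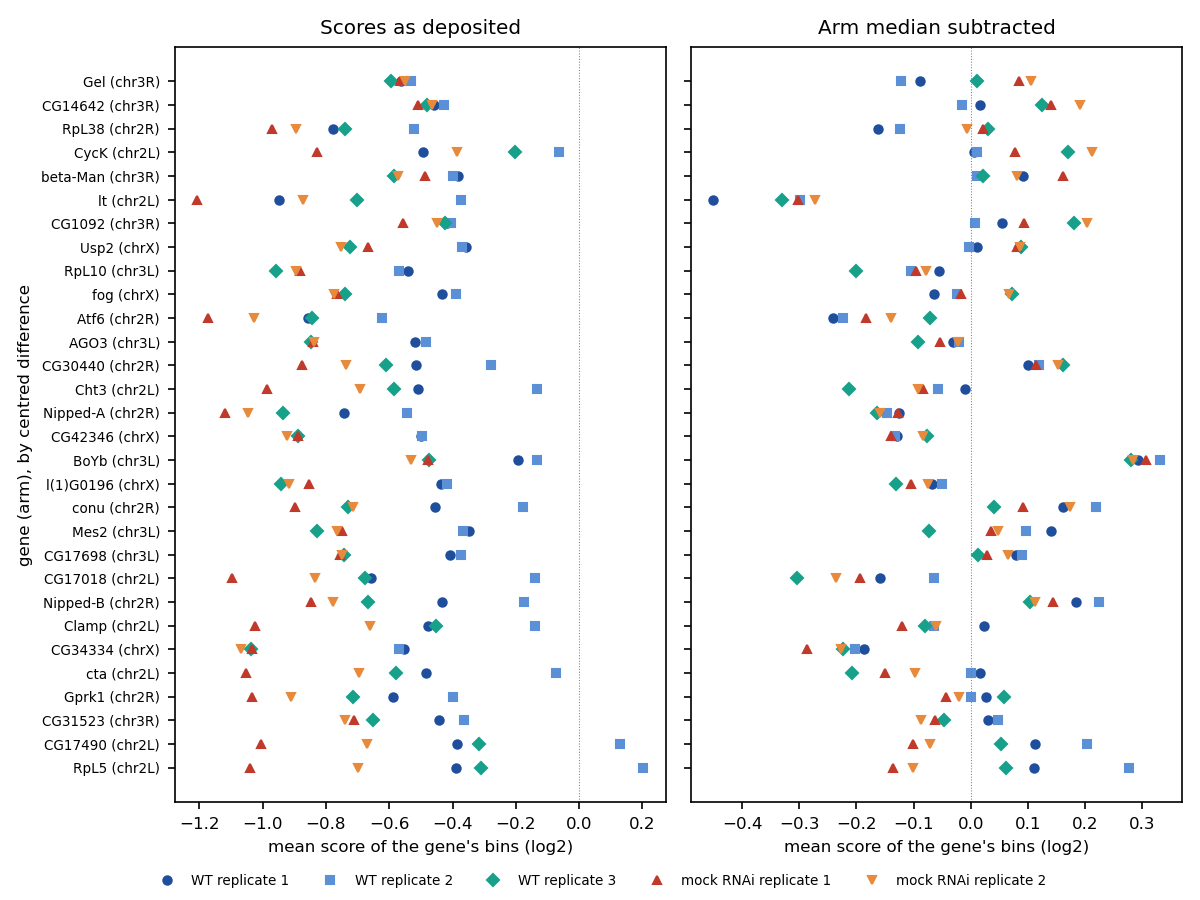
Mean interaction score (log2) of the bins of 30 genes, as deposited on the left and after subtracting the library's arm median on the right; points are libraries and genes are ordered by the centred difference of mock RNAi and WT. On the left 29 of 30 genes are lower on average in mock RNAi, and on the right the groups separate for 7 genes, RpL5 (−0.27) and Gel (0.16) at the ends.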

How the data were processed

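5C scores of 3 WT and 2 mock RNAi libraries were compared. The authors trimmed and filtered the reads, aligned them with Bowtie2 to all combinations of primer pairs, scaled them to the total of mapped reads, and computed log2 observed over expected scores with HiTC and my5C against a control that was not crosslinked, in dm3, with median binning and smoothing. They deposited these log2 scores per library. Versions of these tools are not given in the sources used here.

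From these values, same-arm pairs of different bins were taken once each, averaging the values above and below the diagonal, and a score of 0 was taken as missing. Two-sided exact permutation tests were run on library summaries, for which the smallest p is 0.2 for 2 libraries against 3 and 0.333 for 2 against 2. Bin pairs and bin means with a value in all 5 libraries were tested with limma (lmFit, eBayes) and Benjamini-Hochberg adjustment at 0.05, on deposited scores and after subtracting each library's median of each arm. A bin mean is the mean over its partners. The limma step was first tested on simulated data. For bin pairs it recovered 0% of log2 changes of 0.5 and of 1, on deposited and on centred scores. For bin means it recovered 0% of changes of 0.5 and 91.67% of changes of 1 on deposited scores. On centred scores it recovered 85% and 98.33% of these changes of bin means.

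Named items were every arm and distance class, the bins of genes with dm3 positions in the study's lists, the 5 bins with the largest centred difference in each direction among bins whose groups did not overlap (at most 2 per arm and direction), and the 3 bin pairs with the smallest centred p in each direction (at most 1 per arm and direction). Called bins, runs of bins and shared positive or highest pairs were described in addition. The members, lists and tests were chosen with earlier results of these data known. Alternatives covered zeros, shared pairs, pairs at least 30 kb apart, means, the replicate block, other normalizations and fits, and leaving out each library. The libraries depleted of HP1a or of Su(var)3-9 entered only the fit on all 9 libraries. Contacts between arms were not analysed here. The limma version was 3.58.1, under R 4.3.3. Tests and figures of library values were made in Python 3.11.15 (scipy 1.17.1, numpy 2.4.6, matplotlib 3.10.9, pandas 2.3.3).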

Additional observations from a re-analysis of the deposited data

How the results depend on the processing

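The lower deposited scores of mock RNAi kept their direction for the all-pair, arm and distance class medians under all alternative values computed for them (60 for all-pair and arm medians, 50 for distance classes), and with exact tests that cannot go below 0.2 this says nothing of significance. The all-pair difference was −0.39 to −0.21 when 1 library was left out. Of 238 alternative values of library summaries, 7 changed sign, all in 3 summaries near 0. The centred difference from 100 to under 200 kb was −3.1e-05 and that at 400 kb and over 0.0030 with means in place of medians, the latter ranged from −0.017 to 0.0040 with 1 library left out, and the chrX median relative to the other arms ranged from −0.080 to 0.11. Among the libraries left out in turn, WT replicate 3 moved the numbers of limma calls most, and leaving out 1 library gave 0 to 790 bin pairs and 0 to 362 bins on deposited scores, and 0 to 145 bin pairs and 0 to 116 bins on centred scores. On deposited scores the 0 came from leaving out WT replicate 2 or either mock RNAi replicate. The 21 bins called on deposited scores became 8 with zeros kept as values, 11 with trended and robust variances, 0 in the fit on all 9 libraries and 0 after quantile normalization, and the cause was not tested.

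Replicate numbers are shared by the labels only. Over deviations from the group means, same-numbered libraries correlated at 0.310 for number 1 and 0.0994 for number 2, which is too few pairs to take the numbers as a pairing. With the replicate block, WT replicate 3 has no partner and adds nothing to the difference. Exact permutation tests with the block gave p = 0.5 for each library summary, the smallest p that 2 pairs allow. The limma fit with the block leaves 1 residual degree of freedom per feature, so no result is drawn from its counts. On deposited scores this fit called 1723 of 35415 bin pairs, all lower in mock RNAi, and 540 of 569 bins, 539 lower and 1 higher. On centred scores it called 23 bin pairs, all lower, and 186 bins, 90 lower and 96 higher. The chrX median relative to the other arms was −0.069 with the block. The difference in all-pair medians with the block was −0.39.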
